A study of Mus musculus with 11 samples.

Results

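The experiment asked which transcripts of mouse Leydig tumor cells were shifted by knockdown of *Mamld1* irrespective of the siRNA used. All 7 arrays of MLTC-1 cells (MLTCs) transfected with siRNA1 (4 arrays) or siRNA2 (3 arrays) were pooled and compared with all 4 arrays of non-targeted MLTCs, which had received the non-targeting control RNA 4611G. These 7 and 4 arrays are all 11 arrays of the series, and they were chosen by their titles alone. Each RNA was used at 20 nM with Lipofectamine RNAiMAX, and total RNA was extracted 48 h later. The labels name no hormone, whereas the methods of the study describe RNA from cells taken at the time of steroid measurement, after stimulation with hCG (human chorionic gonadotropin). All groups shared the cell line, the medium, and the transfection, and the labels do not say whether the arrays of a group came from separate cultures, so that p values measure the spread between arrays. MLTC-1 is a single tumor-derived line, and its RNA represents no normal Leydig cell. Since RNA was taken from whole cultures, fewer cells of a kind and less RNA per cell cannot be told apart.

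*Mamld1* encodes an X-linked protein with a Mastermind-like domain that takes part in testosterone production, and defects of human *MAMLD1* cause hypospadias. An siRNA is a short RNA duplex. One of its strands guides the Argonaute complex to matching mRNAs, which are then cleaved, and a partial match through the seed of the guide can also lower other mRNAs. The siRNAs differ in sequence and share their target. Leydig cells make testosterone from cholesterol, which they take up or synthesize, under control of luteinizing hormone or hCG through cAMP.

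The signal of each probe was expressed as log2 relative to the 75th percentile of its array, and the effect is the pooled siRNA value minus the control value (log2) with the slide as a block. Testing required a probe to be well above background on each of the 11 arrays, which held for 22645 of 41174 probes, with 11278 named genes among them. A probe was called at an adjusted p of 0.05 or less. The 75th percentile of the raw signal ranged from 469.7 to 774 over the 11 arrays, and 58.6% to 62.6% of the spots of an array were well above background. The arrays lay on 3 slides, each of which held control, siRNA1, and siRNA2 arrays and was scanned on a day of its own. Control arrays 1 and 2 lay on slide 1, control array 3 on slide 2, and control array 4 on slide 3. All 7 Leydig cell markers examined, *Cyp11a1*, *Cyp17a1*, *Hsd3b1*, *Insl3*, *Lhcgr*, *Nr5a1*, and *Star*, were above background on all 11 arrays. Of the macrophage and leukocyte markers, *Cd14* was above background on all arrays and *Adgre1*, *Aif1*, *Lyz2*, and *Ptprc* on none. The Sertoli cell markers *Amh*, *Clu*, *Dhh*, *Gata1*, and *Rhox5* were above background on all arrays, and *Sox9* and *Wt1* on none, and *Rhox5* was called lower (-0.48, adjusted p = 0.045). Of the peritubular markers, *Acta2*, *Des*, and *Tagln* were above background on all arrays, with *Des* lower (-0.57, adjusted p = 0.030). *Myh11* was above background on 9 arrays and *Cnn1* on 3. Of the germ cell markers, *Kit*, *Prm1*, and *Sycp3* were above background on all arrays, with adjusted p from 0.669 to 0.981. *Ddx4* was above background on 8 arrays, *Dazl* on 1, and *Dmrt1* on none. The macrophage marker *Csf1r* was above background on 6 arrays, the Sertoli cell marker *Fshr* on 3, and the endothelial marker *Pecam1* on 3. Of the endothelial markers, *Kdr*, *Tek*, and *Tie1* were above background on no array, while the summed level of the measured ones was 96.6% to 102.7% of the control mean in non-targeted MLTCs and 154% to 236% in siRNA-transfected MLTCs. This sum followed *Cdh5* (1.07 on the log2 scale, adjusted p = 0.00162), whereas *Egfl7* was lower (-0.83, adjusted p = 0.00295).

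Pooled over both siRNAs, *Mamld1* knockdown was accompanied by many moderate differences and few large ones. Of the 22645 probes, 1454 (6.42%) were higher in siRNA-transfected MLTCs by less than 2-fold and 1562 (6.9%) were lower by less than 2-fold. Changes of 2-fold or more were called for 99 probes in the upward direction (0.437%) and for 101 in the downward direction (0.446%). Thus 3016 of the 3216 called probes, or 93.8%, lay below 2-fold. The smallest called difference was 0.22 on the log2 scale, against a median standard error of 0.12 over all tested probes. Among the moderate calls, the median difference was 0.49 upward, which is 1.40-fold, and -0.47 downward, which left 72.0% of the control level. The quartiles were 0.39 and 0.65 for the higher probes and -0.63 and -0.37 for the lower probes. By size, 403 of the higher probes were below 0.4, 589 from 0.4 to 0.6, 315 from 0.6 to 0.8, and 147 from 0.8 to 1, and the corresponding numbers of lower probes were 505, 593, 316, and 148. Over all tested probes the median was -0.046, and 89.3% of them lay within 0.5 of 0. Without adjustment, 6619 probes had a p of 0.05 or less.

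**Figure D1:**
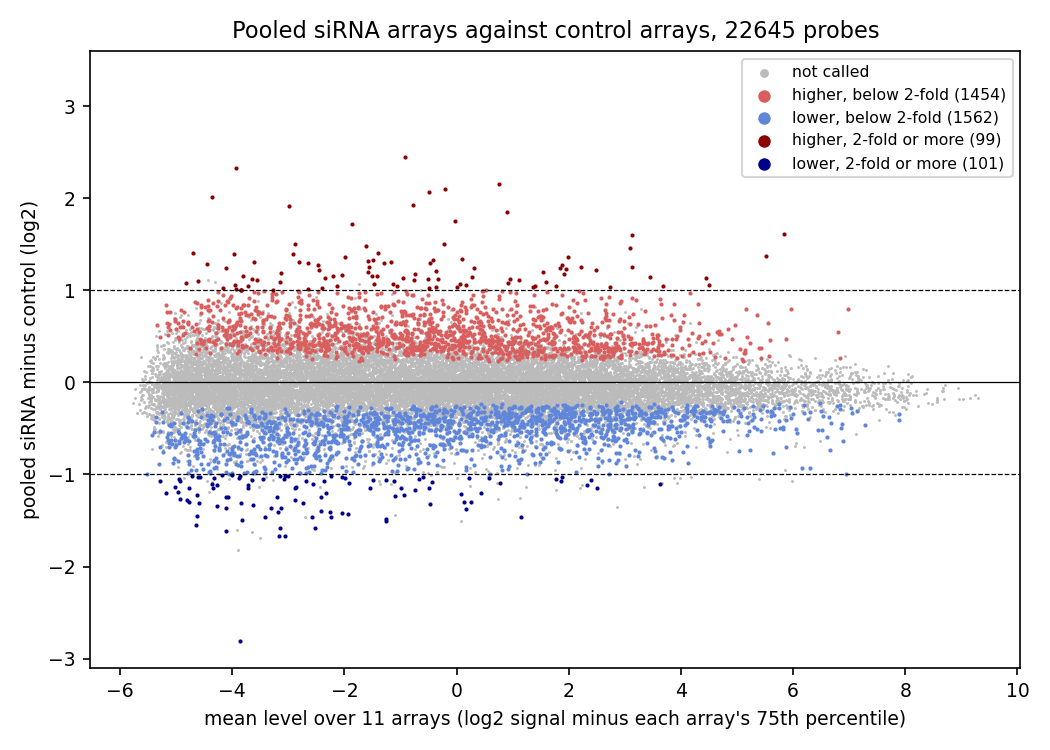
Each point is a probe, with its mean level over the 11 arrays on the horizontal axis (log2 signal minus the 75th percentile of the array) and the pooled siRNA minus control difference (log2) on the vertical axis. The 1454 higher and 1562 lower probes called below 2-fold lie between the dashed lines at 1 and -1 over nearly the whole range of levels, and 99 and 101 called probes lie beyond them.

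The moderate calls were seen on each slide. The within-slide difference had the pooled direction on all 3 slides for 1452 of 1454 higher and 1559 of 1562 lower probes, as it did for 61.4% of all tested probes; this is a description, because the same arrays gave the calls. All 7 siRNA arrays lay above all 4 control arrays for 993 of the higher probes, and below them for 1044 of the lower probes. Among all tested probes, 1239 (5.47%) were separated upward in this way and 1485 (6.56%) downward. The calls occurred at every level of signal. In the brightest of 4 equal groups of probes, 5.25% were called moderately higher and 8.2% moderately lower, and in the dimmest 4.61% and 5.44%.

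The number of moderate calls fell when single control arrays were left out. Control arrays 3 and 4 were the only ones of slides 2 and 3. With slide as a block, leaving out either of them also takes the siRNA arrays of its slide out of the comparison. Leaving out control array 1 left 812 higher and 792 lower probes, leaving out control array 3 left 494 and 448, leaving out control array 4 left 690 and 626, and leaving out siRNA1 array 1 left 937 and 921. Without slide 1, 2, or 3, which removes 4, 4, and 3 arrays, 51 and 32, 226 and 202, and 625 and 579 probes remained called moderately higher and lower. The pooled fit takes differences between the siRNAs as spread, and a fit that kept the siRNAs apart and averaged their effects called 2995 higher and 4250 lower probes below 2-fold. A background correction by normexp left 1 and 0 moderate calls, and 1239 and 1557 once local backgrounds above 3 times the median were replaced.

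Counted as genes, each by its brightest tested probe, 697 genes (6.18%) were higher and 1010 (8.96%) were lower in siRNA-transfected MLTCs, whatever the size. Where a moderately changed gene had a second tested probe, that probe often moved along but not always. Of 284 higher genes, the second probe was called higher in 151, called lower in 1, and not called in the rest, with a positive sign in 111 of these. Of 278 lower genes, the second probe was called lower in 123, called higher in 5, and not called with a negative sign in 139. The genes with opposite calls were *Emc8*, *Itsn1*, *Map1lc3b*, *Pomt2*, *Tcf25*, and *Ttc41*. The genomic span of the genes also differed, by RefSeq annotation of GRCm38.p6. Its median was 30.8 kb for the 656 genes called moderately higher, 16.5 kb for the 948 called moderately lower, and 21.2 kb for all tested genes.

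*Mamld1* itself was reduced by close to 2-fold. Relative to the mean of non-targeted MLTCs, its signal in the 4 control arrays was 88.0%, 85.2%, 119%, and 112%. In the siRNA-transfected MLTCs it ranged from 44.1% to 77.0%, with a median of 48.1%. No siRNA array reached the control range, and the pooled difference was -0.95 (SE 0.15, adjusted p = 0.00274) on the log2 scale, or -1.05 with siRNA1 and -0.83 with siRNA2. Within slides 1, 2, and 3 the difference was -0.91, -0.91, and -1.06. An exact two-sided permutation test within slides gave p = 0.0139, the smallest p that its 72 arrangements allow. Its mean raw signal was 22.3, against 6.94 to 8.90 for the dimmest spots counted as well above background on an array, and without slide 1 the difference was -0.98 with an adjusted p of 0.109. Under normexp the direction turned (0.39, adjusted p = 0.688), and once extreme local backgrounds were replaced the difference was -0.33 (adjusted p = 0.0471).

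The 15 moderate increases and 15 moderate decreases with the largest test statistic were taken from probes whose groups did not overlap, so that their separation and the size of their statistic describe the choice. Each of these 30 genes kept its call when any single array was left out, for which the same choice holds. *Slc5a6*, the sodium-dependent multivitamin transporter that carries biotin and pantothenate, had control values of 103%, 96.4%, 90.8%, and 111% of the control mean. In siRNA-transfected MLTCs its signal ranged from 175% to 209%, with a median of 198%, without overlap, and the difference was 0.99 (SE 0.074, adjusted p = 8.15e-05). *Atp1b1*, the beta subunit of the sodium-potassium pump, was at 101%, 95.8%, 99.9%, and 103% in non-targeted MLTCs and ranged from 183% to 219.9%, with a median of 189% with the siRNAs. Its difference of 0.97 (SE 0.079, adjusted p = 0.00012) showed no called difference between siRNAs, with siRNA1 minus siRNA2 at 0.004 (95% interval -0.18 to 0.19, adjusted p = 0.977). Also among transport genes, *Slc25a45*, a member of the mitochondrial carrier family, was higher by 0.98.

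*Cited2*, a transcriptional coregulator that binds CBP and p300, was measured at 98.5%, 101%, 111%, and 90.9% in the control arrays. It ranged from 172% to 190.1%, with a median of 187% in the siRNA arrays, which is a difference of 0.87 (SE 0.073, adjusted p = 0.000144), and 2 further probes of the gene rose by 0.99 and 0.79. *Klf6*, a Krüppel-like transcription factor, rose by 0.85 with the probe of this rule, whereas its other tested probe differed by 0.12 (adjusted p = 0.641). Among genes of adhesion and trafficking, *Fermt2*, which encodes the integrin activator kindlin-2, was at 105%, 103%, 92.2%, and 99.9% in non-targeted MLTCs and ranged from 161% to 202%, with a median of 176% with the siRNAs. Its difference was 0.85 (SE 0.075, adjusted p = 0.000199). *Chmp3*, a subunit of the ESCRT-III complex, rose by 0.82, and *Garre1*, which encodes an effector of Rac, rose by 0.93. *Itpka*, an inositol trisphosphate kinase, rose by 0.98.

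Other increases concerned enzymes that modify proteins and a secreted protein. *Dcun1d2*, which encodes a cofactor of neddylation, was at 95.8%, 109%, 105%, and 90.9% in the control arrays and ranged from 176% to 224%, with a median of 196% in the siRNA arrays. The difference was 0.99 (SE 0.078, adjusted p = 9.65e-05), and a second probe rose by 0.92. *Galnt7*, an enzyme that adds N-acetylgalactosamine to proteins, rose by 0.94, and *Desi2*, a desumoylating peptidase, rose by 0.89. *Fam3c*, which encodes a secreted cytokine-like protein, had control values of 103%, 105%, 90.0%, and 103% and siRNA values from 171% to 203%, with a median of 178%. The groups did not overlap, and the difference was 0.88 (SE 0.079, adjusted p = 0.000199). *Hsdl1*, a hydroxysteroid dehydrogenase-like gene, and *Macrod2*, an ADP-ribose hydrolase, rose by 0.88 and 0.93.

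The 15 moderate decreases with the largest test statistic included enzymes of metabolism and a nuclear receptor. *Slc25a1*, the mitochondrial carrier that exports citrate for the synthesis of fatty acids and sterols, was at 98.6%, 88.9%, 100.2%, and 114% in non-targeted MLTCs. In siRNA-transfected MLTCs it ranged from 49.2% to 67.5%, with a median of 54.5%, with no overlap, and the difference was -0.85 (SE 0.08, adjusted p = 0.000227). *Nr1h4*, the bile acid receptor FXR, had control values of 98.2%, 93.4%, 102%, and 107% and ranged from 47.0% to 57.7%, with a median of 51.2% with the siRNAs. This corresponds to -0.96 (SE 0.088, adjusted p = 0.000211). *Ddah2*, which degrades the nitric oxide synthase inhibitor dimethylarginine, was at 95.9%, 96.7%, 105%, and 103% in the control arrays and ranged from 54.5% to 62.7%, with a median of 59.5% in the siRNA arrays. It had a lower signal, with a log2 difference of -0.78 (SE 0.071, adjusted p = 0.000207).

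Further decreases of this group concerned signaling and nuclear proteins. *Slc38a9*, the lysosomal amino acid transporter that signals to mTORC1, differed by -0.79, with a second probe at -0.25 that was not called (adjusted p = 0.0649). *Coprs*, a partner of the arginine methyltransferase PRMT5, was at 101%, 94.3%, 95.8%, and 109% in the control arrays and ranged from 42.6% to 58.3%, with a median of 51.5% in the siRNA arrays. Its difference of -0.997 (SE 0.095, adjusted p = 0.000265) lay next to the 2-fold limit. *Zbtb32*, a BTB zinc finger repressor, and *Cpne7*, a calcium-dependent phospholipid-binding copine, differed by -0.93 and -0.98. *Zbtb32* was the one gene of the 30 whose call was lost without slide 1 (-0.87, adjusted p = 0.0509), and *Cpne7* turned to 0.037 under normexp. *Kcnu1*, a potassium channel of sperm, *Serpina3k*, a serine protease inhibitor, and *Fstl5*, a follistatin-like gene, differed by -0.92, -0.98, and -0.79, and the last of these together with *Serpina3k* turned positive under normexp. *Tmsb15l*, a thymosin beta gene, and the genes *1700007K13Rik* and *5730455P16Rik*, whose roles are not given here, differed by -0.78, -0.87, and -0.89.

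For some of these genes the probes did not move together. *Dido1*, which encodes a chromatin-binding PHD finger protein, had the largest test statistic of these decreases, with control values of 94.96%, 97.1%, 94.4%, and 115% and siRNA values from 52.0% to 62.9%, with a median of 53.9%. Its difference was -0.87 (SE 0.067, adjusted p = 8.41e-05), whereas its other probes differed by -0.036 and -0.24 and were not called. *Itsn1*, an endocytic scaffold protein, differed by -0.93 with this probe and by -0.92 with another, was higher by 0.51 with the third (adjusted p = 0.0126), and was not called with the fourth (-0.19). The other probes of *5730455P16Rik* differed by -0.13 and -0.21 and were not called.

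**Figure D2:**
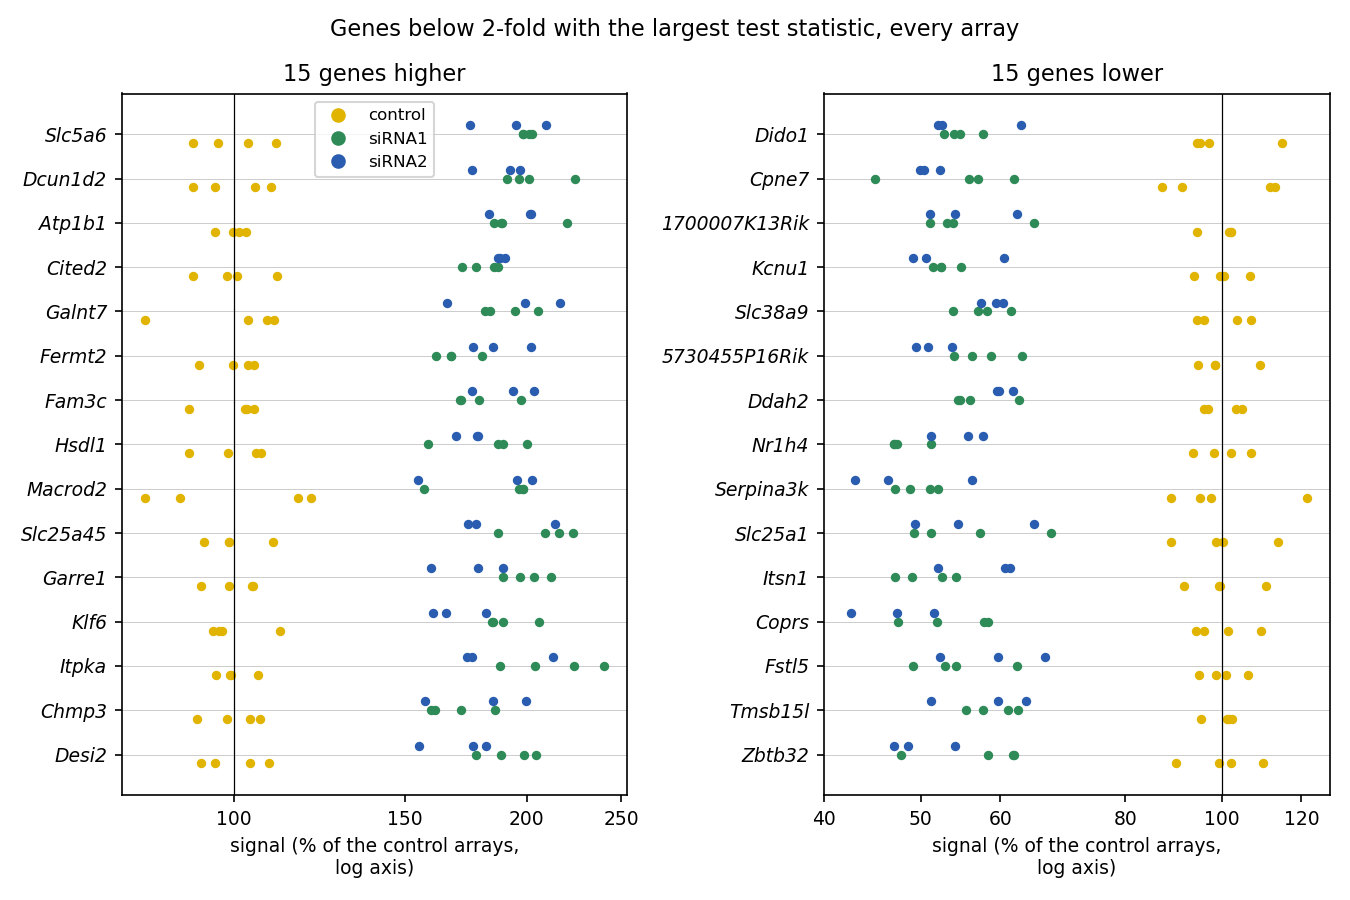
Each point is the signal of a single array as a percentage of the control mean, on a log axis, for the 15 higher and the 15 lower genes below 2-fold with the largest test statistic and no overlap between groups. Control arrays are yellow, siRNA1 arrays green, and siRNA2 arrays blue. The separation follows from the choice, and the siRNA arrays lie between 155% and 240.3% of the control mean for the higher genes and between 42.6% and 67.5% for the lower genes.

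The 2-fold limit divided genes of nearly equal change. Just below it lay *Arhgef7* (0.998), *Slc5a6* (0.99), and *Dcun1d2* (0.99), and just above it *Abcb1a* (1.004), *Ppp2r1b* (1.01), and *Igfbp5* (1.02). On the downward side *Cflar* (-0.999), *Coprs* (-0.997), and *Gtf2a1l* (-0.995) lay inside the limit, and *Fn3k* (-1.004), *Arhgef4* (-1.01), and *Slc24a4* (-1.01) outside it. Their near-equal size follows from the choice, whereas their evenness between siRNAs varied. *Igfbp5*, an insulin-like growth factor binding protein, differed by 0.54 with siRNA1 and 1.62 with siRNA2, and *Cflar*, an inhibitor of caspase-8, by -1.40 with siRNA1 and -0.51 with siRNA2.

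Many genes of cholesterol synthesis were lower, and few of cholesterol uptake and regulation. Of 29 genes tested from a list of 30 for synthesis, uptake, and regulation, 13 were called lower, 0 were called higher, and the median difference was -0.31, compared with 8.96% of genes called lower and a median of -0.068 over all tested genes. Without adjustment 16 genes were lower and 0 higher, with limma as with the unpaired test named in the methods. This unadjusted count is not particular to cholesterol genes. With limma, 6619 of all 22645 probes passed without adjustment, in either direction. Unadjusted decreases were also frequent among proteasome genes (15 of 31) and lysosome and autophagy genes (12 of 34), whereas DNA replication had 0 of 35. All 13 moderate decreases had the same direction on all 3 slides, as had 1559 of all 1562 moderately lower probes. In 9 of the 13 no siRNA array overlapped a control array, as in 1044 of those 1562 probes. The list followed the pathway, in which acetyl-CoA is built into mevalonate and farnesyl diphosphate, farnesyl diphosphate into squalene and lanosterol, and lanosterol into cholesterol.

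Of the 7 genes of the mevalonate part, 3 consecutive steps were called. *Mvk*, mevalonate kinase, was at 111%, 79.96%, 103%, and 109% in the control arrays and ranged from 46.6% to 81.2%, with a median of 55.6% in the siRNA arrays, with a small overlap and a difference of -0.76 (SE 0.17, adjusted p = 0.0182). For *Pmvk*, phosphomevalonate kinase, the control values were 100.1%, 101%, 88.9%, and 111%, and the siRNA values ranged from 48.4% to 70.4%, with a median of 59.9%. Its groups did not overlap, and the difference was -0.73 (SE 0.092, adjusted p = 0.00104). *Mvd*, the decarboxylase that follows, was at 101%, 82.4%, 96.2%, and 125% in non-targeted MLTCs and ranged from 50.1% to 76.2%, with a median of 55.0% in siRNA-transfected MLTCs, without overlap and with the smallest p of the list (-0.79, SE 0.089, adjusted p = 0.000583). Earlier and later steps, *Hmgcs1* (-0.30), *Acat2* (-0.21), and *Fdps* (-0.32, adjusted p = 0.0766), were not called.

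Among the enzymes that make squalene and lanosterol, 2 of 3 were called. *Lss*, lanosterol synthase, had control values of 105%, 94.4%, 99.7%, and 101% and ranged from 58.8% to 74.6%, with a median of 63.0% with the siRNAs. The groups were separate, and the difference was -0.60 (SE 0.087, adjusted p = 0.00214). *Fdft1*, squalene synthase, had a lower signal, with a log2 difference of -0.41 (SE 0.077, adjusted p = 0.00721), and *Sqle*, squalene epoxidase, missed the threshold (-0.31, SE 0.093, adjusted p = 0.0547).

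From lanosterol to cholesterol, 7 of 9 genes were called, with a median of -0.41. *Hsd17b7*, the 3-ketosteroid reductase of this pathway, was at 79.6%, 121%, 99.6%, and 105% in the control arrays and ranged from 46.1% to 79.0%, with a median of 55.0% in the siRNA arrays. This was the largest difference of the list (-0.81, SE 0.16, adjusted p = 0.00909), and a second probe differed by -0.71. *Tm7sf2*, a sterol C14 reductase, had control values of 104%, 91.8%, 101%, and 104% and siRNA values from 46.1% to 77.2%, with a median of 55.8%. It differed by -0.80 (SE 0.13, adjusted p = 0.00347), and more with siRNA1 than with siRNA2 (-0.97 with siRNA1 and -0.58 with siRNA2). Further calls were *Ebp* (-0.51), *Cyp51* (-0.48), *Msmo1* (-0.41), and *Dhcr7* (-0.31), which encode an isomerase, a demethylase, an oxidase, and a reductase of the pathway. *Nsdhl* (-0.31, adjusted p = 0.0913) and *Sc5d* (-0.055) were not called.

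Genes of uptake and regulation had medians near 0, at 0.029 for 7 genes of uptake, transport, and storage and -0.019 for 3 regulators. *Scarb1*, the receptor for high-density lipoprotein, was at 95.8%, 77.7%, 109%, and 124% in non-targeted MLTCs and ranged from 63.0% to 92.0%, with a median of 64.9% in siRNA-transfected MLTCs. The ranges overlapped, and the difference was -0.56 (SE 0.094, adjusted p = 0.00422). It was the 1 call among 7 genes of uptake, transport, and storage. None of the 3 regulators was called, with *Srebf2*, the transcription factor that drives the pathway, at -0.013 (SE 0.14, adjusted p = 0.963), *Scap* at -0.019, and *Insig1* at -0.25 (adjusted p = 0.188). Where called genes had second probes, those of *Cyp51*, *Hsd17b7*, *Lss*, *Mvk*, and *Pmvk* were also called lower, and those of *Dhcr7* (-0.29) and *Fdft1* (-0.17) were not called. The count of 13 fell to 7 without control array 3, 8 without control array 4, 1 without slide 1, 2 without slide 2, and 8 without slide 3, while the median stayed between -0.36 and -0.22 in all alternatives but normexp, where it was -0.56 and 0 genes were called. Quantile normalization and median scaling each left 9 calls.

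**Figure D3:**
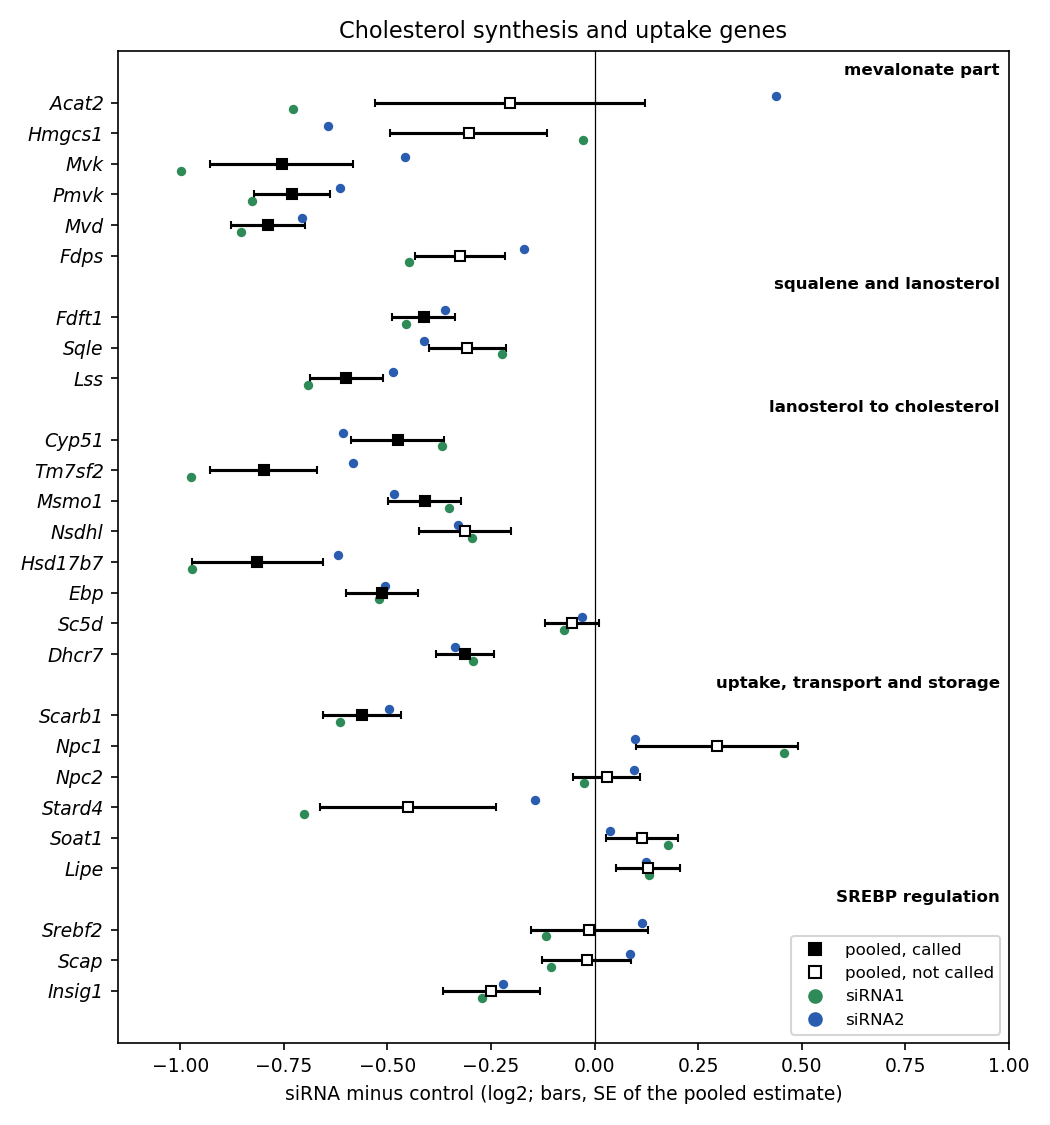
Squares give the pooled siRNA minus control difference (log2) of 26 of the 29 genes with its standard error, filled where called, and green and blue points give siRNA1 and siRNA2. The 12 filled squares lie between -0.81 and -0.31, all of them enzymes of synthesis but *Scarb1*, and the 3 regulators lie between -0.25 and -0.013.

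Promoters of these genes are shown because their transcripts moved together. RefSeq start sites on GRCm38.p6 gave windows of 300 bases, from 250 before to 50 after the start, for 20 of the 29 tested genes. Letters of the motifs searched on both strands are in capitals, namely CAAGGTCA (SF-1), TGACGTCA (CREB), TGGGAA (RBPJ), TCACNCCAC (SREBP), and CACGTG (E-box), none of which contains another. *Mvd* had the smallest p of the list and held no match, and *Hsd17b7* had the largest difference and held an E-box. *Dhcr7* was called and held the SF-1 letters at a start upstream of another, and an E-box at a start not shown. *Hmgcs1* was not called and held the SREBP letters. It also held the RBPJ letters, as TTCCCA, at -128 to -123 from the start, directly after the SREBP letters, and at -107 to -102. Each sequence is written 5′ to 3′ on the strand of its gene.
*Mvd* (chr8:122443373-122443672, minus strand): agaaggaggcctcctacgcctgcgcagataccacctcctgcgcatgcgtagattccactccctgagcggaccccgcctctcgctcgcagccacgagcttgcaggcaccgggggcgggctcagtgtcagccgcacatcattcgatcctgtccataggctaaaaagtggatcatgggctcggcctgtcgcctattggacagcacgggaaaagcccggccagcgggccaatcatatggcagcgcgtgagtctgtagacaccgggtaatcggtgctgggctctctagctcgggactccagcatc
*Hsd17b7* (chr1:169969156-169969455, minus strand): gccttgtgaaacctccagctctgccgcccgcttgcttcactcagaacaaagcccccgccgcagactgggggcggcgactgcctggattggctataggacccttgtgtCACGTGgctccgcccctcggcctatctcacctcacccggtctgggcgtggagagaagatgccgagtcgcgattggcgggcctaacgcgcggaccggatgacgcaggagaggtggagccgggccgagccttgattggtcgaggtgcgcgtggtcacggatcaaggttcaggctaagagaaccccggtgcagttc
*Dhcr7* (chr7:143822917-143823216, plus strand): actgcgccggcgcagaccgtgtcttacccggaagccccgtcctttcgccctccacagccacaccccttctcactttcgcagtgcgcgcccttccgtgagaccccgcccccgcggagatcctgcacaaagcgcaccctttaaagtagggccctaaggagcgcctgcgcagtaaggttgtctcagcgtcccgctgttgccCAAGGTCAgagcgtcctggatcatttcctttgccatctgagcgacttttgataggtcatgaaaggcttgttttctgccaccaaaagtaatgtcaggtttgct
*Hmgcs1* (chr13:119690101-119690400, plus strand): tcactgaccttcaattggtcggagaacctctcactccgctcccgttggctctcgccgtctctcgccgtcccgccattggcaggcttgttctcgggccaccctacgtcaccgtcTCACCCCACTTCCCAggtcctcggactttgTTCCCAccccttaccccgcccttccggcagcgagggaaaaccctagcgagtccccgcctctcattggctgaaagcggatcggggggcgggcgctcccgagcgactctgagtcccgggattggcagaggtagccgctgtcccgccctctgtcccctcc
Among the 13 promoters found for 10 of the 13 called genes, the SREBP letters occurred in 0, the E-box in 2, and the RBPJ and SF-1 letters in 1 each. Over the 25 promoters of all tested genes of the list, called or not, the E-box occurred in 7 (28%), the RBPJ letters in 6 (24%), the SREBP and SF-1 letters in 1 each, and the CREB letters in 0. Over all tested genes, 1.2% of 11579 promoters held the SREBP letters, 9.78% the E-box, 23.1% the RBPJ letters, 2.9% the CREB letters, and 1.15% the SF-1 letters. Promoters of the moderately lower genes held them in 1.21%, 10.6%, 23.9%, 2.73%, and 1.31%, and those of the moderately higher genes in 0.727%, 8.14%, 21.1%, 2.47%, and 1.31%. The shares of the moderately lower and higher genes lay near those of all tested genes, whereas that of the E-box in the cholesterol list was higher. Its 7 promoters belonged to 6 genes, because overlapping windows of *Scap*, which was not called, held the same E-box. In promoters of the called genes of the list the share was 15.4%. These shares were not compared by a test, and a match describes letters in a window and no binding site.

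A list of steroid production genes, which also held transcription factors and other Leydig cell genes, showed 4 calls lower and 1 higher among 23 tested genes. These are 17.4% and 4.35%, against 8.96% and 6.18% over all tested genes. *Cyp17a1*, a P450 enzyme that turns pregnenolone and progesterone into androgen precursors, was at 95.2%, 82.2%, 108%, and 118% in the control arrays and ranged from 48.9% to 81.0%, with a median of 56.4% in the siRNA arrays. The groups did not overlap, the difference was -0.77 (SE 0.15, adjusted p = 0.00817), and the exact permutation test within slides gave p = 0.0139. *Fdx1*, the ferredoxin that carries electrons to mitochondrial P450 enzymes, had control values of 101%, 99.5%, 101%, and 98.1% and siRNA values from 63.6% to 82.5%, with a median of 75.9%. It differed by -0.46 (SE 0.081, adjusted p = 0.00578). Its other probes differed by -0.34 (called) and -0.32 (not called, adjusted p = 0.277). *Hsd17b12* differed by -0.70 with overlapping groups, and *Cyb5r3*, a cytochrome b5 reductase, by -1.10, beyond 2-fold. Another *Cyb5r3* probe differed by -0.91 and was not called (adjusted p = 0.0562). *Gata6*, a transcription factor of steroidogenic cells, was the higher gene, at 94.0%, 99.6%, 102%, and 104% in non-targeted MLTCs and from 128% to 141%, with a median of 133% in siRNA-transfected MLTCs. This amounts to 0.41 (SE 0.071, adjusted p = 0.00489). Other *Gata6* probes differed by 0.38 (called) and 0.17 (not called, adjusted p = 0.840). The median over the 23 genes was -0.059. The call of *Cyp17a1* was lost without control array 3, that of *Cyb5r3* without control array 3 or 4, and that of *Hsd17b12* in 9 of 11 such fits.

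Genes of the hCG and cAMP response were called in both directions, 5 higher and 5 lower of 22 tested, with a median of -0.094. This was 22.7% in each direction, against 6.18% higher and 8.96% lower over all tested genes. *Adcy9*, an adenylyl cyclase that makes cAMP, was at 80.6%, 97.8%, 116%, and 109.9% in the control arrays and ranged from 137% to 198%, with a median of 178% in the siRNA arrays. The difference was 0.71 (SE 0.086, adjusted p = 0.000875) without overlap, and *Adcy3*, another cyclase, rose by 0.46. *Prkar1b* and *Prkar2b*, regulatory subunits of the cAMP-dependent kinase, differed by -0.98 and -0.37, and *Prkar1b* turned to 0.14 under normexp. Among the transcription factors that respond to hormone, *Egr1* was at 93.2%, 122%, 117%, and 75.4% in non-targeted MLTCs and ranged from 44.6% to 78.7%, with a median of 57.5% in siRNA-transfected MLTCs, with an overlap. It differed by -0.86 (SE 0.17, adjusted p = 0.0106), *Fosb* by -0.67, *Jun* by 0.33, and *Atf1* by 0.61, with 2 further *Atf1* probes at 0.63 and 0.69. *Rgs2*, a regulator of G protein signaling, had control values of 119.5%, 117%, 91.8%, and 77.8% and siRNA values from 44.3% to 66.0%, with a median of 58.3%, a difference of -0.83 (SE 0.15, adjusted p = 0.00692). *Dusp1*, a phosphatase of MAP kinases, rose by 0.47. In fits that left out 1 of the 11 arrays, the calls of *Adcy9* and *Rgs2* were kept throughout, whereas those of *Egr1* and *Atf1* were lost in 1 fit, *Adcy3* and *Dusp1* in 2, *Prkar1b* in 3, *Fosb* in 4, *Jun* in 8, and *Prkar2b* in 9. Without control array 3 the list held 1 higher and 1 lower call, without control array 4 it held 2 and 2, and without slide 1 it held 0.

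The target belongs to a list of Mastermind and Notch genes, of which 17 were tested. With the target included, 17.6% were called lower and 0% higher, against 8.96% and 6.18% over all tested genes. Beside *Mamld1*, *Hes6*, a HES family gene (-0.52, SE 0.091, adjusted p = 0.0053), and *Jag1*, a Notch ligand (-0.39, SE 0.10, adjusted p = 0.0335), were lower. Of the 17 tested genes 0 were higher (4 without adjustment), and the median was 0.0097. The list held 28 genes, of which 26 were on the array, and the others were not well above background on all 11 arrays. The highest difference among the 17 was 0.36, so that no rise of 2-fold was among the tested values. The paper reports the Notch-related gene *Hey1* as up-regulated beyond its fold limit with both siRNAs. The count of 0 does not speak for untested genes. *Hes6* was at 99.9%, 98.0%, 97.9%, and 104% in the control arrays and ranged from 61.7% to 83.4%, with a median of 68.6% in the siRNA arrays, and a second probe differed by -0.45. The call of *Jag1* was lost in 8 of 11 fits that left out an array.

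The remaining lists had pooled medians from -0.19 (proteasome) to 0.16 (RNA silencing), compared with -0.068 over all tested genes. Of all tested genes, 6.18% were called higher and 8.96% lower. Of 35 genes of DNA replication, limma called 0 in either direction, with differences between -0.28 and 0.25 and a median of -0.037. Without adjustment the count was also 0 with limma, and 0 higher and 2 lower with the unpaired test named in the methods of the study. Fitted apart against the same 4 control arrays, siRNA1 arrays gave 1 higher and 9 lower calls with a median of -0.18. The siRNA2 arrays gave 3 higher and 0 lower with a median of 0.12. Counts from separate fits do not show that the siRNAs differ, and their direct comparison is not given for these genes. Among 33 mitosis genes (median 0.066), 2 were higher, *Kif2c* (0.46) and *Ccnf* (0.43), and 2 were lower, *Kif20a* (-0.30) and *Foxm1* (-0.28). Both lower calls were lost when any of the 4 control arrays was left out. In all, *Foxm1* lost its call in 9, *Kif20a* in 7, and *Ccnf* in 2 of 11 fits without 1 array. The 65 cytosolic ribosomal protein genes had 1 call, *Rpsa* (0.86), and a median of -0.14, and 62 of their values were negative. Of 54 respiratory chain genes (median -0.077), *Ndufa7* was lower (-0.39). The 31 proteasome genes had a median of -0.19 with 30 negative values, and *Psma5* (-0.37), *Psmb3* (-0.33), *Psma4* (-0.27), and *Psmb4* (-0.26) were called lower. This median was -0.12 after quantile normalization, with 0 calls, and each of the 4 calls was lost in at least 6 of 11 fits that left out an array.

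Stress and quality control genes were called here and there. Over all tested genes 6.18% were called higher and 8.96% lower, and of the ER genes 3.23% and 12.9%. Of the antioxidant genes 9.68% were called lower, and of the lysosome and autophagy genes 14.7%, with 0% higher in both lists. *Sdf2l1*, an ER protein of the chaperone network, was at 92.2%, 99.6%, 96.0%, and 113% in the control arrays and ranged from 44.1% to 74.96%, with a median of 51.7% in the siRNA arrays, and it differed by -0.88 (SE 0.13, adjusted p = 0.00255). *Trib3* (-0.55) and *Asns* (-0.43), targets of ATF4, and *Atf6* (-0.34) were also lower, *Edem1* was higher (0.43, a call lost in 7 of 11 fits that left out an array), and the median of the 31 genes was -0.0040. Among 26 genes of p53 and apoptosis (median -0.086), 5 were higher (19.2%) and 1 lower (3.85%). *Bmf* (1.07) exceeded 2-fold, although a second *Bmf* probe differed by 0.081, and *Gadd45a* (0.47), *Sesn1* (0.33), and *Bcl2l1* (0.31) were moderate. *Trp53inp1* was the lower gene (-0.30). The count was 2 higher and 0 lower without control array 3, and 3 and 0 without control array 1, control array 4, or siRNA1 array 1, with *Trp53inp1* lost in 6 of 11 such fits, *Bcl2l1* in 4, *Sesn1* in 3, and *Gadd45a* in 2. Further probes that were not called differed by 0.38 for *Sesn1*, -0.26 and 0.033 for *Bcl2l1*, -0.36 for *Trp53inp1*, -0.10 for *Atf6*, and 0.22 and 0.44 for *Edem1*. Among 31 antioxidant genes (median -0.12), *Nqo1* (-0.54), *Srxn1* (-0.51), and *Mgst1* (-0.99) were lower, and among 34 lysosome and autophagy genes (median -0.15), *Neu1* (-0.48), *Gla* (-0.30), *Map1lc3b* (-0.34), *Mcoln1* (-0.39), and *Atp6v0d1* (-0.40) were lower. A second *Map1lc3b* probe was called higher (0.53, adjusted p = 0.00196). Each of these antioxidant and lysosome calls was lost in at least 4 of 11 fits that left out an array.

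Of 26 genes of glycolysis and hypoxia (median -0.053), 3 were lower (11.5%, against 8.96% of all tested genes). *Ankrd37*, a hypoxia-inducible gene, was at 102%, 104%, 93.8%, and 100.1% in non-targeted MLTCs and ranged from 53.1% to 65.7%, with a median of 63.4% in siRNA-transfected MLTCs. Its difference was -0.69 (SE 0.078, adjusted p = 0.000607), and *Vegfa* (-0.38) and *Hk1* (-0.38) followed, the other *Vegfa* probes at -0.12 and -0.15 not being called. The call of *Hk1* was lost in 8 of 11 fits that left out an array, and its other probes, at -0.37, -0.23, and -0.0029, were not called. Among 42 genes of vesicle tethers and coats (median -0.061), 4 were higher and 4 lower. This was 9.52% in each direction, against 6.18% higher and 8.96% lower over all tested genes. *Exoc4* (2.16) and *Trappc2* (1.36) exceeded 2-fold, *Sec24a* (0.72) and *Trappc8* (0.53) were moderately higher, and *Vps53* (-0.58), *Trappc5* (-0.40), *Copz1* (-0.31), and *Trappc9* (-0.31) moderately lower. Without control array 3 the vesicle list had 3 higher and 0 lower calls, without control array 4 it had 2 and 1, and under a replicate block 3 and 0. In fits without 1 array, *Copz1* was lost in 9 of 11, *Trappc8* and *Trappc9* in 5 each, and *Vps53* in 2. Of 21 matrix and adhesion genes tested (median -0.11), *Mmp14* was higher (0.44), a call lost in 6 of 11 such fits. This list held 38 genes, of which 37 were on the array, and the others were not well above background on all 11 arrays. The lowest difference among the 21 was -0.41, whereas the study listed *Lama2*, a member of the list, as lower by more than 2-fold with both siRNAs.

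Genes of RNA sensing and silencing were listed because the cells had received siRNAs. Of the sensing list 9.09% were called higher and 4.55% lower, and of the silencing list 10.5% and 5.26%. Over all tested genes these shares were 6.18% and 8.96%. Of 22 genes of the interferon response and RNA sensing (median -0.043), *Psmb8* (0.56), a subunit of the immunoproteasome, and *Ifih1* (0.66), which encodes the RNA sensor MDA5, were higher. *Ifih1* was at 110.1%, 96.5%, 98.5%, and 95.6% in the control arrays and ranged from 129% to 175%, with a median of 168% in the siRNA arrays, without overlap. *Irf7* was lower (-0.44), its call was lost in 5 of 11 fits that left out an array, and it turned to 0.44 under normexp. Of 19 silencing genes (median 0.16), *Tnrc6a* (1.31), a partner of Argonaute, and *Dcp1a* (1.14), a decapping factor, were higher by over 2-fold, and *Xpo5*, the exporter of miRNA precursors, was lower (-0.49, SE 0.069, adjusted p = 0.0019). *Xpo5* had control values of 100.2%, 94.5%, 98.2%, and 108% and siRNA values from 67.6% to 75.2%, with a median of 72.7%, although a dimmer probe differed by -0.048, as did a dimmer *Dcp1a* probe by 0.23, both without a call.

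**Figure D4:**
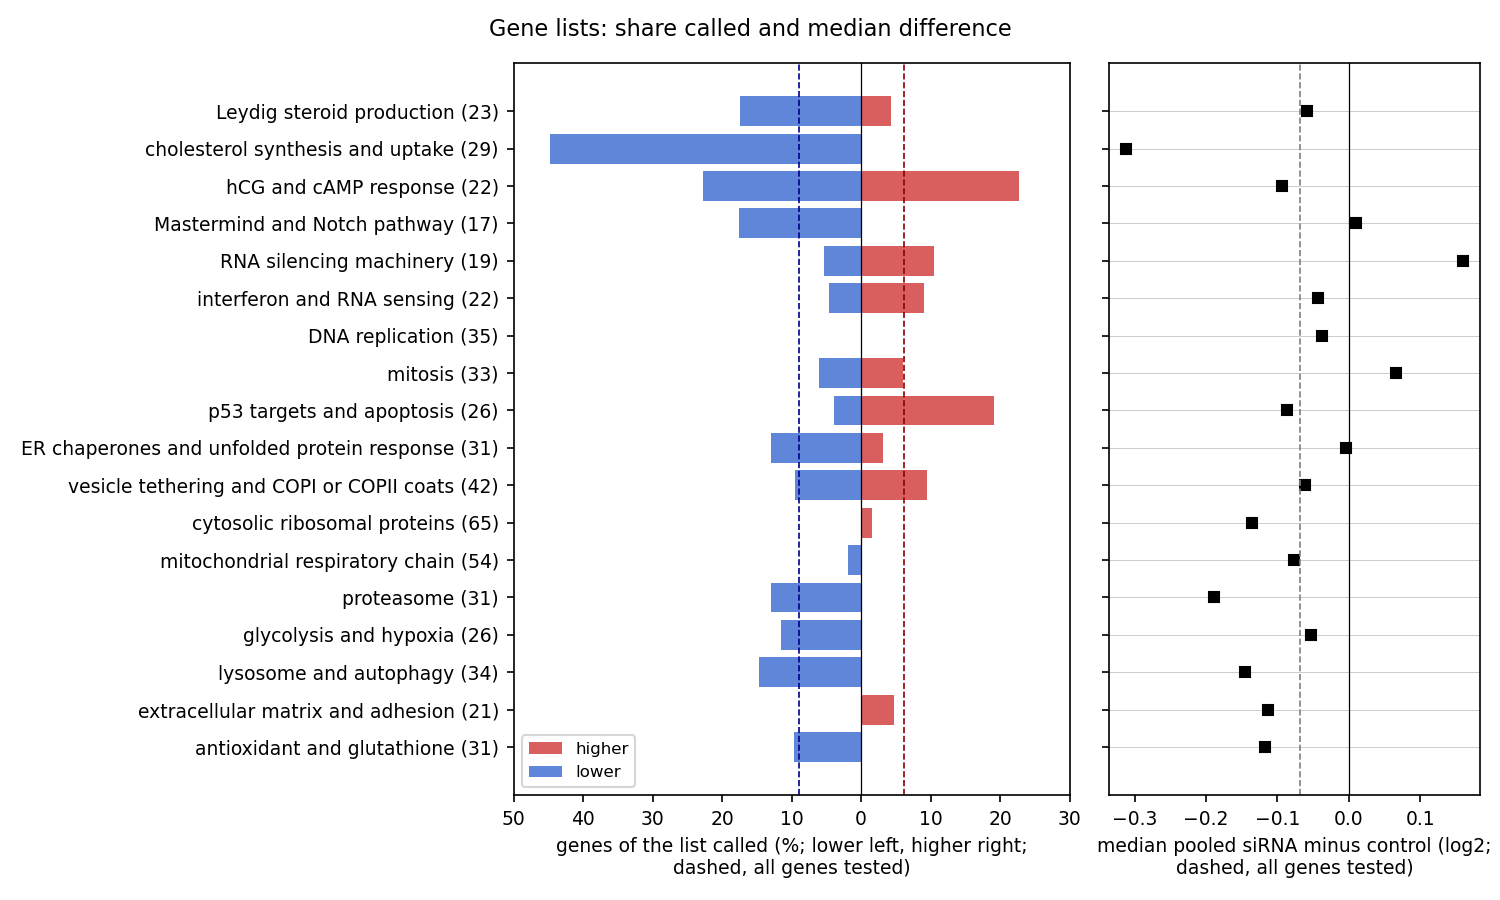
The left panel gives the percentage of tested genes of each list (number tested in parentheses) called lower or higher, with dashed lines at 8.96% and 6.18% for all genes, and the right panel gives the median pooled difference (log2), with a dashed line at -0.068. Cholesterol synthesis and uptake has the largest share of lower genes (44.8%) and the lowest median (-0.31) of the 18 lists.

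The pooled effect did not imply equal effects of both siRNAs. The direct comparison of siRNA1 with siRNA2 was called for 7739 of all tested probes (34.2%), and for 782 of the 3016 moderate calls (25.9%). Where these probes were higher, siRNA1 had the larger effect in 222 and siRNA2 in 115, and where they were lower, siRNA1 had the larger effect in 304 and siRNA2 in 141. The moderate calls came from a fit with 4 siRNA1 and 3 siRNA2 arrays that takes differences between the siRNAs as spread. Their choice therefore bears on the lower share and on the larger counts for siRNA1. The median difference from control of the moderately higher probes was 0.51 with siRNA1 and 0.45 with siRNA2, and that of the lower probes was -0.49 and -0.43, both against the same 4 control arrays. For the remaining probes equality was not shown, as the 95% interval of siRNA1 minus siRNA2 had a median half-width of 0.23 over all tested probes.

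The largest differences between siRNAs among the moderate calls were close to 1 on the log2 scale. *Pgbd5*, a gene derived from a transposase, was lower with both siRNAs and more with siRNA2, and siRNA1 minus siRNA2 was 1.07 (95% interval 0.91 to 1.22, adjusted p = 9.33e-06) in its dimmer probe and 0.84 (95% interval 0.69 to 0.98, adjusted p = 2.07e-05) in its brighter probe. *Lrp8*, a receptor for apolipoprotein E and reelin, was at 95.4%, 106%, 106%, and 93.2% in the control arrays and ranged from 125% to 272%, with a median of 209% in the siRNA arrays. It differed by 1.27 with siRNA1 and 0.43 with siRNA2, which are 0.84 (95% interval 0.61 to 1.07, adjusted p = 0.000287) apart. *Mgst1*, the microsomal glutathione transferase, was at 100.2%, 97.8%, 96.1%, and 106% in non-targeted MLTCs and ranged from 33.0% to 76.8%, with a median of 37.9% in siRNA-transfected MLTCs. It differed by -1.48 with siRNA1 and -0.40 with siRNA2, with siRNA1 minus siRNA2 at -1.08 (95% interval -1.25 to -0.91, adjusted p = 1.42e-05). *Ms4a4c* (-1.38 with siRNA1 and -0.45 with siRNA2) and *Dppa5a* (-1.40 with siRNA1 and -0.48 with siRNA2) were also lower chiefly with siRNA1. These genes were chosen for the size of the difference, which is given as a description.

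Among the genes described above, the siRNAs differed for *Cyp17a1* by -0.46 (95% interval -0.66 to -0.25, adjusted p = 0.00408), with -0.97 with siRNA1 and -0.52 with siRNA2. They also differed for *Mvk* by -0.54 (95% interval -0.79 to -0.29, adjusted p = 0.00478), for *Tm7sf2* by -0.39 (95% interval -0.57 to -0.21, adjusted p = 0.00554), and for *Lss* by -0.20 (95% interval -0.36 to -0.051, adjusted p = 0.0446), each lower with siRNA1. No difference between siRNAs was called for *Mvd* (-0.15, 95% interval -0.34 to 0.046, adjusted p = 0.217) or *Pmvk* (-0.21, 95% interval -0.38 to -0.042, adjusted p = 0.0555). Of the 30 genes with the largest test statistics, *Garre1* (0.22, 95% interval 0.076 to 0.36, adjusted p = 0.0249) and *Klf6* (0.19, 95% interval 0.057 to 0.33, adjusted p = 0.0347) differed between siRNAs.

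**Figure D5:**
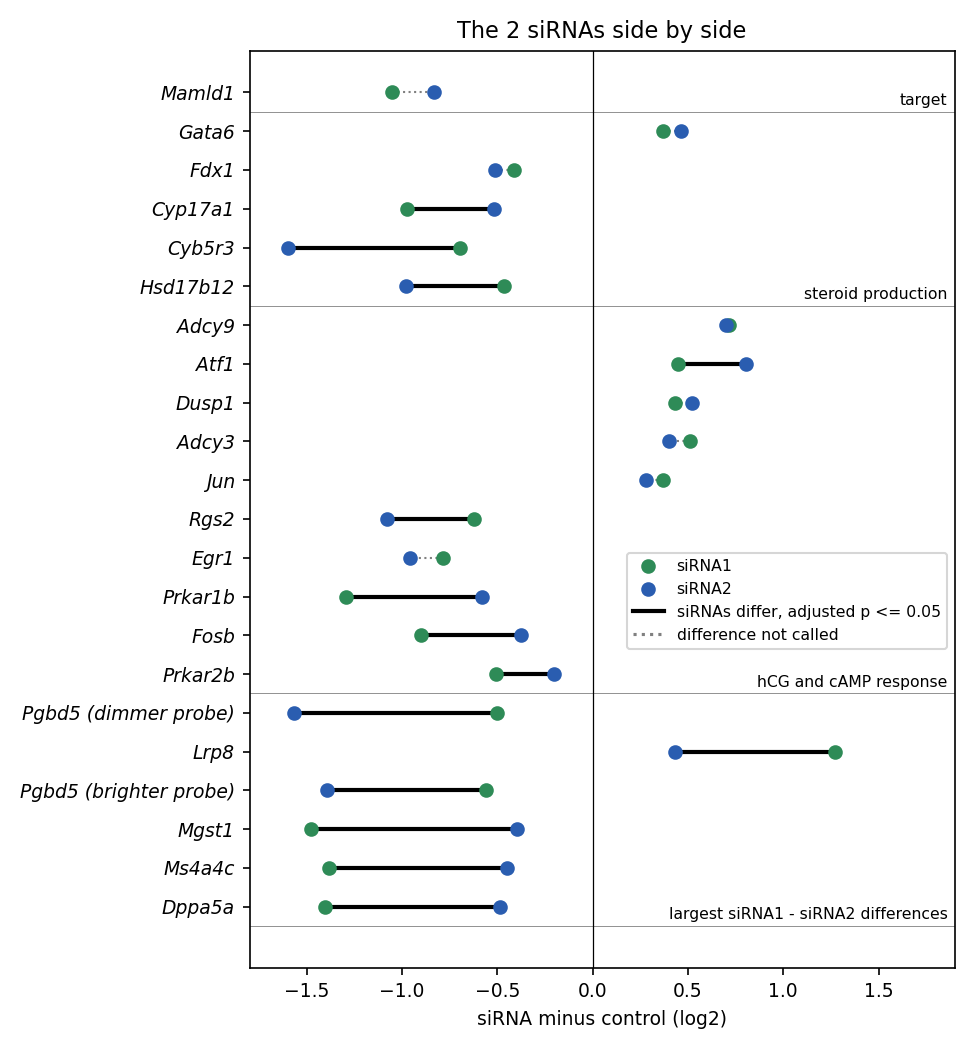
Points give the difference from non-targeted MLTCs (log2) with siRNA1 (green) and siRNA2 (blue) for the target, the called genes of steroid production and of the hCG and cAMP response, and the probes with the largest differences between siRNAs among moderate calls. Solid lines join siRNAs that differ at an adjusted p of 0.05 or less, as for *Cyp17a1* and the 6 probes at the bottom, and dotted lines join those that were not called different, as for *Mamld1*.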

How the data were processed

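RNA of MLTC-1 cells was labeled with Cy3 and hybridized to 11 single-color Agilent arrays, with 4 control, 4 siRNA1, and 3 siRNA2 arrays grouped by title. The signal intensities were made by the authors with Agilent Feature Extraction (version 9.5 per the labels), which subtracts background within an array and does not normalize between arrays. Other deposited columns mark control spots, outlier spots, and spots well above background. The deposited table of group averages was not used.

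The intensity was converted to log2 after scaling, each array was centered on its own 75th percentile over 43379 non-control spots, and spots of 1 probe were averaged (245 probes lay on several spots). Outlier-marked spots were left out, which gave 74 missing values among the tested probes. Probes were named through RefSeq accessions (24375 of 41174), and no coordinates were taken from the array, whose annotation uses an older genome build than GRCm38.p6.

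limma (version 3.58.1, R 4.3.3) fitted slide and knockdown to all 11 arrays, with Benjamini-Hochberg adjustment over 22645 probes. A second limma fit with 3 groups and slide gave siRNA1, siRNA2, and their difference with its 95% interval. Gene lists are described by the brightest tested probe of each gene. Percentages are relative to the geometric mean of the 4 control arrays, and standard errors are those of the fit. The genes named are *Mamld1*, the 15 higher and 15 lower genes with the largest test statistic below 2-fold without overlap between groups, the 3 on each side of the 2-fold limit, called list members, and the 3 largest differences between siRNAs in each direction; the other called genes of the cholesterol list and those with opposite second probes were added after their values were seen, as was the division of that list by pathway step. Some list members are counted but not reported here by name. Comparisons, lists, and members were chosen with earlier results of these data known. The fit was tested on simulated data. Replicate numbers in the titles were checked for pairing. The precision rests on the number of arrays. Alternatives are given in the closing section, and 1 of them was chosen after the data were seen. Figures were drawn with matplotlib (version 3.10.9, Python 3.11.15).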

Additional observations from a re-analysis of the deposited data

Results flagged for a closer look

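In 244 groups of 4 arrays (control or siRNA1) of the named probes, 18 held an array that stood apart from the others by Dixon's criterion, which chance gives in about 1 of 20 groups. All values are percentages of the control mean. In non-targeted MLTCs these were *Fam3c* (90.0%, control array 3), *Jun* (86.4%, control array 1), *Klf6* (112%, control array 4), *1700007K13Rik* (94.5%, control array 1), *Dido1* (115%, control array 4), *Asns* (107%, control array 4), and *Mcoln1* (104%, control array 3). In siRNA1-transfected MLTCs they were *Mamld1* (77.0%, array 2), *Atp1b1* (219.9%, array 1), *Adcy3* (174%, array 3), *Macrod2* (157%, array 4), *Nr1h4* (51.2%, array 1), *Hsd17b12* (93.4%, array 1), and *Scarb1* (77.7%, array 4). The others were *Ccnf* (119%, array 3), *Ifih1* (137%, array 2), *Tnrc6a* (364%, array 1), and *Gla* (90.7%, array 4). For *Mamld1* the array that stood apart had the weakest knockdown of its group.

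The siRNAs differed in effect, by the test of siRNA1 minus siRNA2, for 39 of the named probes. For probes higher than control, the values on the log2 scale were 0.88 for *Abcb1a*, -0.36 for *Atf1*, -0.53 for *Exoc4*, 0.25 for *Gadd45a*, 0.22 for *Garre1*, -1.08 for *Igfbp5*, and 0.19 for *Klf6*. They were 0.84 for *Lrp8*, 0.86 for *Ppp2r1b*, 0.53 for *Tnrc6a*, and 0.37 for *Trappc8*. For probes lower than control they were 0.36 for *Arhgef4*, -0.20 for *Asns*, -0.35 for *Atp6v0d1*, -0.89 for *Cflar*, 0.90 for *Cyb5r3*, -0.46 for *Cyp17a1*, -0.92 for *Dppa5a*, -0.52 for *Fosb*, and -0.35 for *Gtf2a1l*. Further lower probes were *Hk1* (0.28), *Hsd17b12* (0.51), *Lss* (-0.20), *Mcoln1* (-0.30), *Mgst1* (-1.08), *Ms4a4c* (-0.94), *Mvk* (-0.54), *Neu1* (0.34), *Nqo1* (0.38), and *Pgbd5* (0.84 and 1.07). The remaining ones were *Prkar1b* (-0.72), *Prkar2b* (-0.31), *Rgs2* (0.45), *Sdf2l1* (-0.41), *Slc24a4* (-0.80), *Srxn1* (0.48), *Tm7sf2* (-0.39), and *Vps53* (-0.37). Among these lower probes, a positive value means the larger decrease with siRNA2. No reason for these differences was tested.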

How the results depend on the processing

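The reported counts were 1454 moderately higher and 1562 moderately lower probes, 99 and 101 beyond 2-fold, and -0.95 for *Mamld1*. In the order moderately higher, moderately lower, 2-fold higher, and 2-fold lower, siRNA1 arrays alone gave 2810, 3628, 208, and 355 probes. Arrays of siRNA2 alone gave 2431 moderately lower and 292 lower by 2-fold or more. Equal weight of both siRNAs, which takes their difference out of the spread, gave 2995 and 4250 moderate calls. Without the filter on dim probes the moderate calls were 800 and 808, and in the brighter part of the probes there were 885 moderately higher, 40 higher beyond 2-fold, and 19 lower beyond 2-fold. With 1 probe a gene, which tests fewer probes, there were 724 moderately higher, 41 higher beyond 2-fold, and 63 lower beyond 2-fold. The methods' t-test without adjustment gave 2564 and 3203 moderate calls. The cause of the other differences was not tested.

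Normexp gave 1 and 0 moderate calls, 8 and 2 beyond 2-fold, and a median over all probes of 0.11 instead of -0.046. With backgrounds above 3 times the median replaced (a setting added once the values were known), 42 and 22 probes lay beyond 2-fold. The direction turned under normexp for *Mamld1* (0.39), *Arhgef4* (0.15), *Cpne7* (0.037), *Dppa5a* (0.23), *Fn3k* (0.20), *Fstl5* (0.24), *Gtf2a1l* (0.44), *Irf7* (0.44), *Prkar1b* (0.14), and *Serpina3k* (0.074). The share of higher probes among all calls was 48.3% as reported, 57.7% after quantile normalization, and 53.6% after median scaling.

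When single arrays were left out, the moderately higher probes numbered 494 to 1429, the moderately lower 448 to 1577, those higher by 2-fold or more 87 to 117, and those lower by 2-fold or more 59 to 147, and *Mamld1* lay between -1.01 and -0.88. Of the 121 named probes, 59 kept their call in all these fits. Without slide 1 the counts were 51, 32, 57, and 29, and *Mamld1* differed by -0.98. Without slide 2 they were 226 and 202 moderate and 55 lower beyond 2-fold, and without slide 3 they were 625 and 579 moderate.

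Arrays that shared a replicate number had a median correlation of 0.36 in their deviations (-0.26 to 0.61, 10 pairs), against 0.37 for arrays of the same slide, and 8 of 11 arrays were matched best by an array of their own number. Arrays of the same number on different slides had a median of 0.20 (4 pairs), against -0.16 for all arrays on different slides. The labels do not say that a number marks a shared culture or day, and the pair with the lowest value correlated negatively, so that the numbers were not taken as pairs. A replicate block in place of the slide gave 1251, 1238, 95, and 113 probes and -0.87 for *Mamld1*. The dim signal of *Mamld1* and the 4 control arrays limit the precision.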
